A study of Mus musculus with 6 samples.

Results

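Eμ is the intronic enhancer of the immunoglobulin heavy chain (IgH) locus, and the genes described here are those without an immunoglobulin name, compared between B-cells of Eμ-deficient mice and of wt mice. All names of the count table were taken except spike-in RNAs and names starting with Igh, Igk or Igl, which left 46569 of 46963 names. The choice was by name alone, so a gene model within an immunoglobulin locus that has another name, such as Gm37511, stayed in. Of these, 13830 had at least 10 counts in at least 2 of the 4 libraries and were tested. The 4 libraries were resting wt, resting Eμ-deficient, LPS-stimulated wt and LPS-stimulated Eμ-deficient B-cells, with 1 library per genotype and culture state. The series holds 6 libraries in all, the others being of mice that lack the 3′ regulatory region (3′RR) of IgH.

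All libraries were made from CD43- spleen cells, that is, spleen cells depleted of those carrying CD43, a surface protein that resting conventional B-cells lack and that most other leukocytes, B-1 cells and plasma cells carry. Each library pooled cells of 2 mice. Stimulation lasted 2 days and used LPS at 5 μg/ml, a bacterial cell wall component that drives mouse B-cells to divide and to become antibody-secreting plasmablasts. The labels give the resting cells as cultured for 2 days without LPS, whereas the study's methods describe them as taken before stimulation. The methods name the mutant line EμMAR-deficient and place it in the 129 background; wt mice were 129 animals from a supplier, and mice were 8 to 12 weeks old and of both sexes. Genotype, mouse colony and any passenger DNA around the targeted locus cannot be told apart in this design. Whether the resting and stimulated libraries of a genotype came from the same mice is not given in the sources used here.

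As background, Eμ lies between the joining segments and the μ constant gene and acts on transcription of the IgH locus in cis. CD43 depletion leaves mainly follicular and marginal zone B-cells. Red cells, their precursors and some macrophages also lack or carry little CD43, so a depleted suspension can hold them. In such bulk RNA, more cells of a type and more RNA per cell cannot be told apart.

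Total counts over genes were 16094475 in resting wt, 13406257 in resting Eμ-deficient, 21998587 in stimulated wt and 10936243 in stimulated Eμ-deficient B-cells. The ratio of Eμ-deficient to wt followed GC content in opposite directions in the states, with a Spearman correlation across 13821 genes of -0.36 at rest and 0.22 after LPS. Among 41 spike-in RNAs with at least 100 counts in all 4 libraries, the SD of the log2 ratio was 0.47 at rest and 0.45 after LPS. B-cell genes were read in every library: of 18 listed names, such as Pax5 and Cd79a, 0 were without counts in any library. All 18 were tested and 0 were called, with medians of the log2 ratio of -0.30 at rest and -0.11 after LPS. In both states 11 of the 18 were lower in Eμ-deficient B-cells and 2 higher.

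Genotype was tested with culture state as a block, by edgeR's quasi-likelihood test and p-values were adjusted by Benjamini-Hochberg over every tested gene. A gene is named called where the adjusted p was under 0.05. The residual of this fit, 1 degree of freedom per gene moderated across genes, measures how far the genotype difference departs from being equal in both states and not the spread between mice. A call in this fit therefore favours genes that moved alike at rest and after LPS. Of the 13830 genes, 303 (2.19%) were called, 240 (1.74%) higher and 63 (0.456%) lower in Eμ-deficient B-cells. For 267 called genes a direction could be measured in both states, and it was the same in all 267 (1.93% of tested genes); for the other 36 (0.26%), counts in 1 state were too low. A direction was measurable in both states for 96.8% of tested genes, and 6364 genes (46.0%) had the same sign in both states.

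A second reading used no test. The log2 ratio of CPM, counts scaled to library size, was taken within each state. Counts of 3 or fewer were raised to 3, so that such a ratio is a bound. By this reading 519 genes (3.75%) were past 2-fold in the same direction in both states, 403 (2.91%) higher and 116 (0.839%) lower, against 118 (0.853%) past 2-fold in opposite directions. The readings shared 245 genes (1.77%). Just inside the 2-fold limit lay Amica1, with log2 ratios of 1.00 at rest and 1.09 after LPS, and just outside lay Adcy6, with 0.9987 at rest and 1.96 after LPS.

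**Figure D1:**
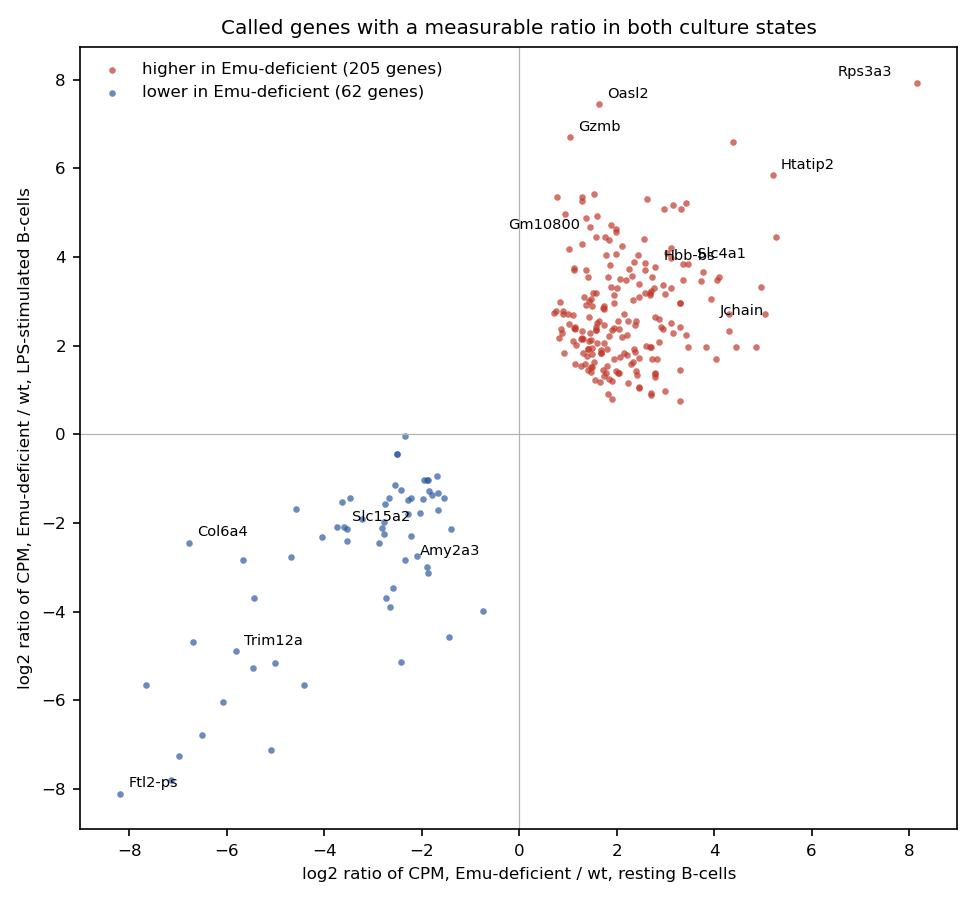
Log2 ratio of CPM of Eμ-deficient to wt at rest (x axis) and after LPS (y axis) for the 267 called genes with a measurable direction in both states; each point is 1 gene. The 205 higher genes (red) and 62 lower genes (blue) lie in 2 opposite quadrants, a layout that the fit itself favours.

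Protein-coding genes made up 209 of the higher and 32 of the lower calls, of 11424 tested. Processed pseudogenes made up 14 of the higher and 17 of the lower calls, of 495 tested, so that 6.26% of them were called. Lower calls thus held many gene copies, and these are described with their parent genes further on.

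Some genes were read in 1 genotype alone. In all 9 names had at most 3 counts in both libraries of 1 genotype and at least 30 in both of the other. Htatip2, which codes for an oxidoreductase, was the only one of the 9 read in Eμ-deficient cells: it had 2 counts in each wt library, 80 in resting and 88 in stimulated Eμ-deficient B-cells. For all 9 names the choice by counts fixed in advance that the libraries of the genotypes did not overlap. The share of all tested genes without overlap was not computed. For Htatip2 the fitted log2 fold change was 6.02 ± 0.66 (SE; adjusted p = 5.35e-06).

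The other 8 were read in wt cells. Col6a4, a collagen VI chain, had 451 counts in resting and 32 in stimulated wt B-cells and 0 in both Eμ-deficient libraries. Trim12a, of the TRIM family that holds antiviral factors, had 231 and 175 counts in wt and 2 and 3 in Eμ-deficient B-cells, at rest and after LPS. Ccl27a, a chemokine, had 48 and 31 counts in wt and 1 and 1 in Eμ-deficient B-cells. That wt lay above Eμ-deficient B-cells for these genes was likewise fixed by the choice. The adjusted p was 2.6e-06 for Col6a4, 7.07e-06 for Trim12a and 0.00276 for Ccl27a.

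The remaining 5 were processed pseudogenes: Ftl2-ps, Gm12164, Gm6394, Gm8210 and Hmgb1-ps8. Ftl2-ps, a copy of the ferritin light chain gene, had 1197 and 1615 counts in wt and 2 and 0 in Eμ-deficient B-cells. The 3′RR-deficient libraries sat with the Eμ-deficient ones for 6 of the 9 names (Htatip2, Col6a4, Ftl2-ps, Gm12164, Gm6394 and Gm8210) in both states. For Trim12a and Hmgb1-ps8 they sat with wt in both states, with 1727 and 258 counts for Trim12a. For Ccl27a the 3′RR-deficient libraries had 73 counts at rest and 3 after LPS.

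**Figure D2:**
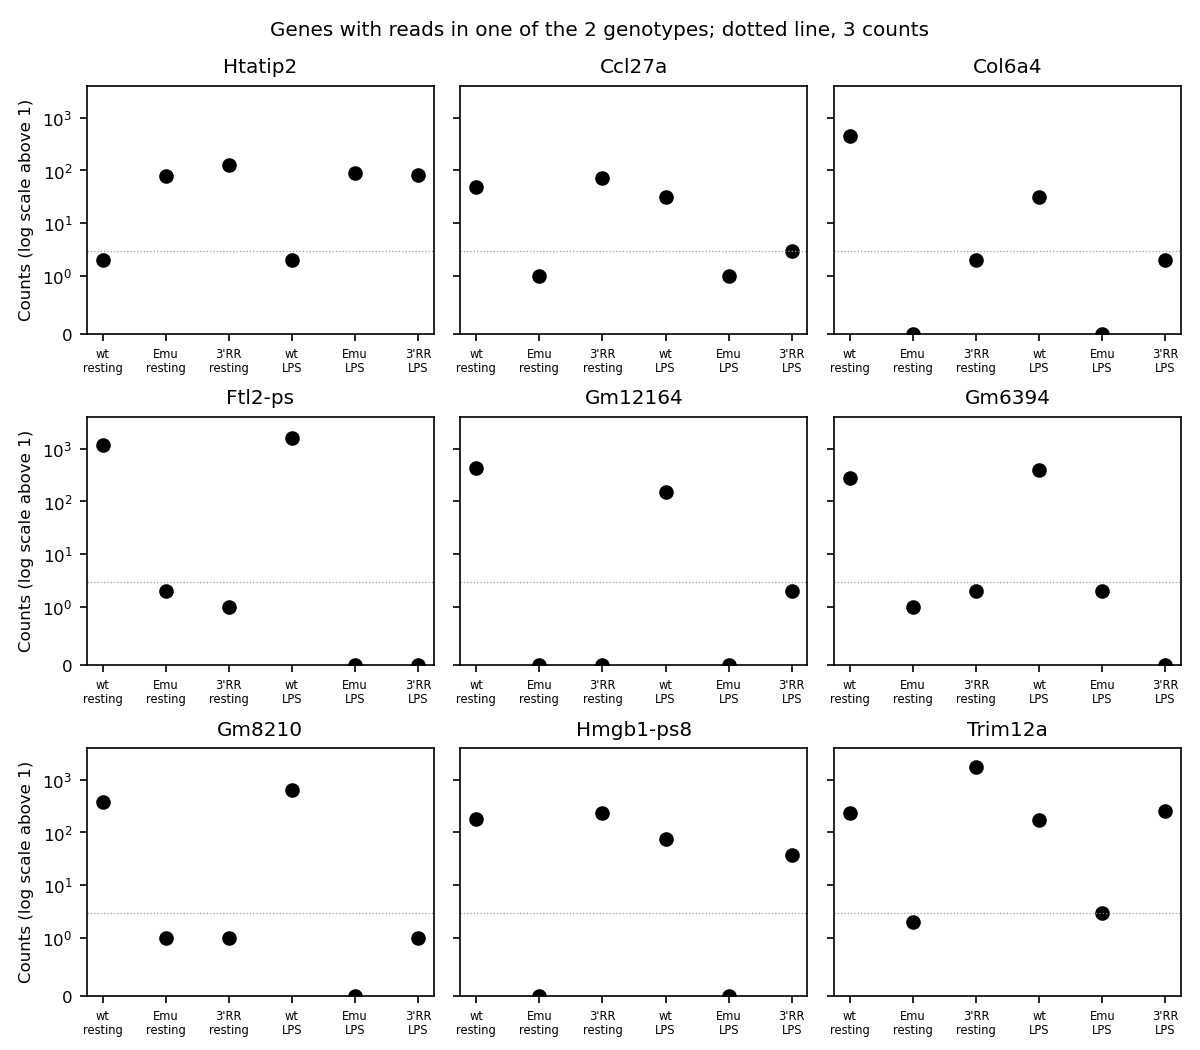
Counts (y axis, logarithmic above 1) in each of the 6 libraries (x axis) for the 9 names with reads in 1 of wt and Eμ-deficient alone; each point is 1 library and the dotted line marks 3 counts. For 6 names the 3′RR-deficient libraries lie on the side of the Eμ-deficient ones, as Ftl2-ps with 1 and 0 counts.

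Several lower calls lay beside each other. Of 61 lower calls with a position, 21 had another lower call starting within 1 Mb, in 9 runs, and of 239 higher calls 99 did, in 37 runs. No such share over all tested genes was computed, so these counts do not show clustering. Some runs hold models in nearly the same place, such as Ftl2-ps and Mir692-2. Others hold models that share sequence, such as those on chromosome 9 described further on. Trim5, Trim12a and Gm15133 spanned chromosome 7 from 104263386 to 104324838 (build GRCm38, which is mm10). Trim5 had 106 counts in each wt library and 1 and 8 in Eμ-deficient B-cells, at rest and after LPS (adjusted p = 0.00114). Msi1, which codes for an RNA-binding protein of stem cells, lay between Gm13832 and Gm13841 on chromosome 5 from 115359078 to 115802159. It had 55 and 25 counts in wt and 0 in both Eμ-deficient libraries. Both runs are far from IgH, which lies on chromosome 12.

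Of 18 listed neighbours of IgH on the distal part of chromosome 12, 15 were tested and 0 were called, with medians of the log2 ratio of -0.07 at rest and -0.00 after LPS. In both states 3 of the 15 were higher and 5 lower, and 7 had opposite signs. Past 2-fold in both states, 1 was lower and 0 were higher. Crip1, a LIM-domain protein gene next to the locus, had 112 and 180 CPM at rest in wt and Eμ-deficient B-cells and 71.6 and 130 CPM after LPS, with an adjusted p of 0.53. Within the locus, the variable segment pseudogene Gm37511 (chromosome 12, 115404431 to 115404724), picked out after its values were seen, was called higher. It had 4 and 19 counts at rest and 5 and 24 after LPS, in wt and Eμ-deficient B-cells (adjusted p = 0.0166). On chromosome 12 as a whole, 12 of 453 genes were called (2.65%).

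Genes of red cells and their precursors were higher in Eμ-deficient B-cells. Hemoglobin chains, the heme enzyme Alas2 and the anion exchanger Slc4a1 were higher in Eμ-deficient libraries in both states. Of 15 listed erythroid names 10 were tested and all 10 were called higher; the median log2 ratio was 3.13 at rest and 3.54 after LPS, against 0.02 and -0.01 over all genes. Of the 10, Epb42 and Rhd had no measurable direction after LPS. The summed level of the listed names was 3432 CPM in resting wt and 20802 CPM in resting Eμ-deficient B-cells, and 56.8 and 681 CPM after LPS.

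Hbb-bs, a β-globin chain, had 1058 CPM in resting wt and 7331 CPM in resting Eμ-deficient B-cells, and 20.6 and 283 CPM after LPS. Alas2, which catalyses the first step of heme synthesis in red cell precursors, had 69.0 and 274 CPM at rest and 0.48 and 7.99 CPM after LPS. Slc4a1, the band 3 protein of the red cell membrane, had 22.2 and 246 CPM at rest, and 0 and 22 counts after LPS. In each state the Eμ-deficient library was the higher one, and the resting wt library lay above the stimulated Eμ-deficient one for all these genes. Fitted log2 fold changes were 3.28 ± 0.51 for Hbb-bs (adjusted p = 0.000329), 2.73 ± 0.45 for Alas2 (adjusted p = 0.000595) and 3.81 ± 0.50 for Slc4a1 (adjusted p = 5.43e-05).

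Without the resting Eμ-deficient library, in a fit of the remaining libraries of all genotypes, 6 of 10 erythroid genes tested were called higher, and without the stimulated Eμ-deficient library 11 of 12 were. The part of red cells carried over from the spleen in these differences was not tested.

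Genes of the red cell membrane and skeleton, a list chosen after their values were seen, differed mainly at rest. Kel, the Kell blood group protein, had 14 and 297 counts at rest and 0 and 6 after LPS, in wt and Eμ-deficient B-cells. Rhd, a Rhesus protein, had 11 and 239 counts at rest and 0 and 2 after LPS. After LPS the counts of Kel and Rhd were at most 6 in each library.

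Promoter windows of erythroid genes are shown because all 10 tested were called higher and because GATA factors, which recognise AGATAA, are known regulators of them. Of the 10 called erythroid genes, 7 were matched in RefSeq promoter sequences of build GRCm38.p6, and 4 of these 7 held AGATAA or its reverse complement TTATCT within 250 bases before the start. Over all 32851 promoters 9.99% held it. The match is a description of letters and says nothing on binding. Of 6 tested erythroid transcription factors, a list chosen after the values were seen, 3 were called higher. In both states 0 of the 6 were higher and 2 lower, with medians of 3.07 at rest and -0.78 after LPS. Of 11 heme synthesis genes, chosen likewise, 2 were called higher, 7 were higher in both states and 4 had opposite signs. The motif is in capitals in the windows below, for Alas2 at chrX:150547317-150547416 (plus strand), Rhd at chr4:134864436-134864535 (plus strand) and Hbb-bs at chr7:103828079-103828178 (minus strand).
Alas2: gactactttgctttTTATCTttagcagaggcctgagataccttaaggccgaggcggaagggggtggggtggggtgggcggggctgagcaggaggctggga
Rhd: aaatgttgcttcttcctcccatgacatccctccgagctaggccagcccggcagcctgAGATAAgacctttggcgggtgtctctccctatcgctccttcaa
Hbb-bs: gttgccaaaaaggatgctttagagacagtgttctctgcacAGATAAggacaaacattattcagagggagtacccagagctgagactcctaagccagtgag

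Macrophage and monocyte genes were higher as well. All 16 listed names were tested, 16 had a higher level in Eμ-deficient B-cells in both states, and 9 were called higher: Lyz2, Csf1r, C1qa, C1qb, C1qc, Vcam1, Ccr2, Hmox1 and Axl. The median log2 ratio was 1.55 at rest and 1.84 after LPS. The summed level was 280 and 885 CPM at rest and 23.5 and 61.3 CPM after LPS, in wt and Eμ-deficient B-cells.

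Csf1r, the receptor for the macrophage growth factor CSF1, had 36.4 and 104 CPM at rest and 0.288 and 2.63 CPM after LPS. Ccr2, the receptor that guides monocytes out of the marrow, had 5.91 and 39.1 CPM at rest, and 1 and 18 counts after LPS. Axl, a receptor for apoptotic cells, had 13.3 and 59.5 CPM at rest and 0.863 and 5.64 CPM after LPS. The Eμ-deficient library was higher within each state, by 1.99 ± 0.42 for Csf1r (adjusted p = 0.00691), 3.12 ± 0.51 for Ccr2 (adjusted p = 0.000548) and 2.38 ± 0.39 for Axl (adjusted p = 0.000651) on the log2 scale. In the fit that left out the resting Eμ-deficient library, 3 of the 16 were called.

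Spic, the transcription factor of iron-recycling red pulp macrophages, belonged to a list of 13 such genes chosen after the values were seen, of which 10 were called higher. Without the resting Eμ-deficient library 0 of the 13 were called, without resting wt 3, and with all 6 libraries 4. Spic had 87 and 409 counts at rest and 3 and 14 after LPS. Of 9 Clec4 receptor genes of myeloid cells, again chosen after the values were seen, 8 were tested and 5 were called higher; 2 were called by DESeq2's Wald test, and 0 without the stimulated Eμ-deficient library.

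Markers of T-cells, NK cells, neutrophils and dendritic cells had 1 or 2 calls per list, all higher. These are larger shares than the 1.74% of all tested genes that were called higher, but they rest on few calls. With the GC trend removed 0 members of these lists were called, and likewise 0 with all 6 libraries. In both states 10 T-cell genes were higher and 0 lower. The same counts were 8 and 0 for dendritic cells, 4 and 0 for NK cells and 2 and 0 for neutrophils. Among T-cell genes 2 of 13 tested were called, Cd4 and Cd28, while Cd3e had 11 and 16 counts at rest and 0 and 4 after LPS. Among NK cell genes 1 of 7, the cytotoxic granule gene Gzmb, was called; it had 12 and 18 counts at rest and 0 and 159 after LPS, so its difference lay in the stimulated cells. S100a8 was called among 4 neutrophil genes tested, with 11 and 32 counts at rest and 1 and 15 after LPS. Siglech, a marker of plasmacytoid dendritic cells, was called among 10 dendritic cell genes. The summed level of the T-cell list was 125 and 144 CPM at rest and 30.2 and 50.6 CPM after LPS.

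**Figure D3:**
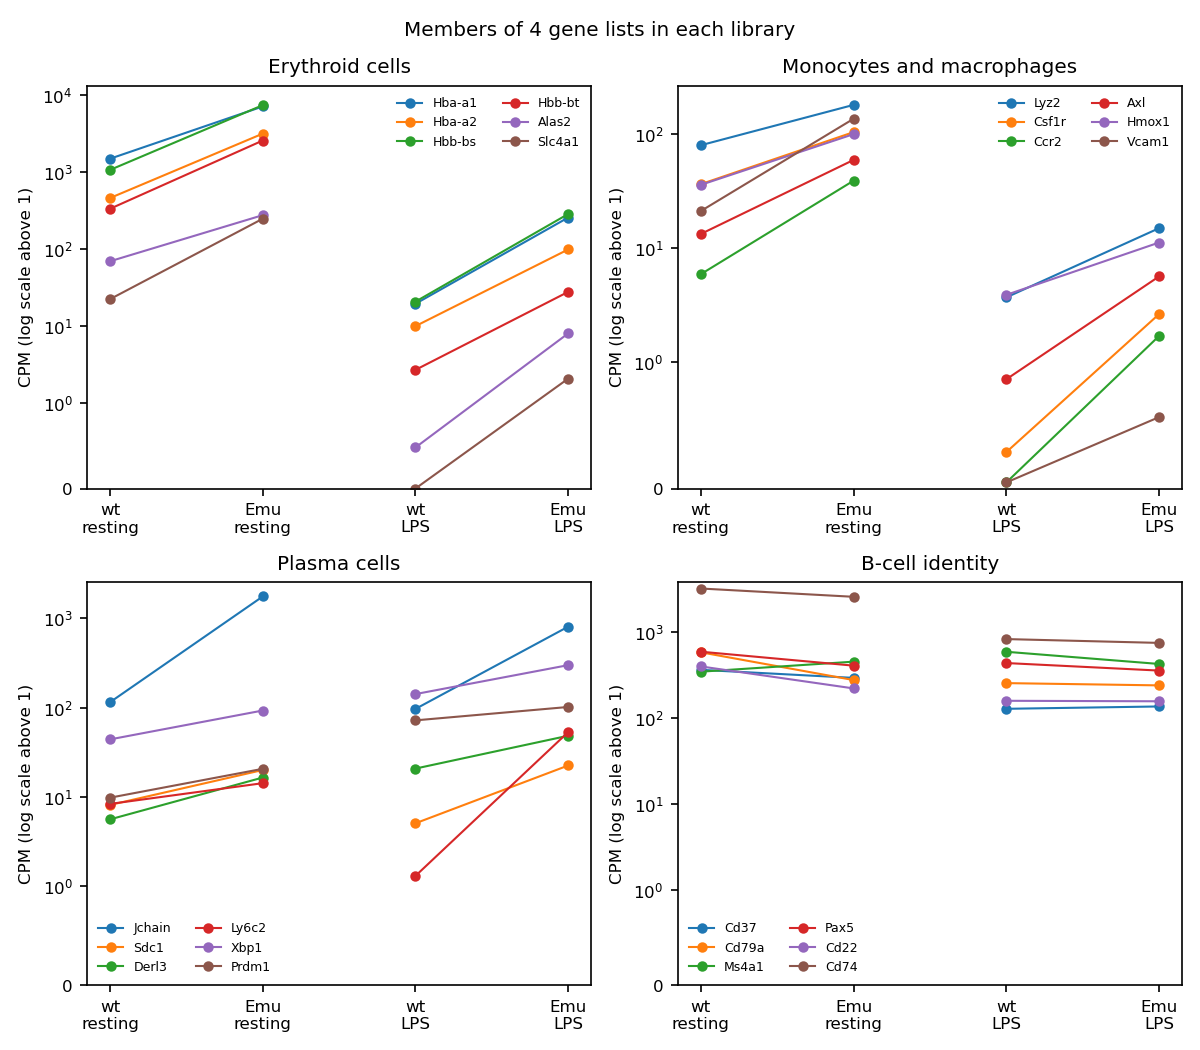
CPM (y axis, logarithmic above 1) in the 4 libraries (x axis) for 6 members each of 4 gene lists; a line joins the wt and the Eμ-deficient library of one state. The erythroid and macrophage genes shown are higher in Eμ-deficient B-cells in both states, as Hbb-bs with 1058 and 7331 CPM at rest, and none of the B-cell genes shown was called.

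Plasma cell genes were higher with fewer calls. Jchain, Sdc1, Derl3 and Ly6c2 were called among 15 of 16 listed genes that were tested, and 14 of the 15 were higher in both states. Jchain, which links IgM and IgA units into polymers, had 115 CPM in resting wt and 1757 CPM in resting Eμ-deficient B-cells, and 96.5 and 806 CPM after LPS. Both Eμ-deficient libraries lay above both wt libraries, and the log2 fold change was 3.50 ± 0.48 (adjusted p = 8.91e-05). Sdc1, which codes for CD138, the surface marker of plasma cells, had 8.08 and 19.9 CPM at rest and 5.04 and 22.4 CPM after LPS, again without overlap between genotypes (adjusted p = 0.0138).

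Regulators of the plasma cell program did not pass the test. Xbp1, which expands the secretory apparatus, had log2 ratios of 1.08 in both states (adjusted p = 0.185), and Prdm1, which codes for Blimp-1, had 1.08 at rest and 0.50 after LPS (adjusted p = 0.449). Of 24 genes of ER chaperones and the unfolded protein response 0 were called, with 19 higher in both states and medians of 0.39 at rest and 0.40 after LPS. The genes of the list are shared in part with that of plasma cells.

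Apart from plasma cells, the lists of B-cell subsets that held calls were those of marginal zone and B-1 cells. Both had a larger share called higher than the 1.74% over all tested genes, but with all 6 libraries 0 genes of either list were called. With the GC trend removed 1 marginal zone gene and 2 B-1 genes were called, and DESeq2's Wald test gave the same counts. In both states 8 marginal zone genes were higher and 1 lower, and 5 B-1 genes were higher and 1 lower. Among marginal zone genes 2 of 14 were called higher, Asb2 and Tlr3, whereas Cr2, the complement receptor CD21, had log2 ratios of 0.89 at rest and -0.34 after LPS. Asb2 had 343 and 698 counts at rest and 10 and 38 after LPS. Among B-1 cell genes 2 of 9 were called higher, Ctla4 and Tbc1d9. Ctla4, an inhibitory receptor, had 85 and 164 counts at rest and 126 and 245 after LPS; scaled to library size, both Eμ-deficient libraries lay above both wt libraries (adjusted p = 0.0182).

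No follicular gene was called among 10 tested, with medians of -0.87 at rest and -0.12 after LPS. Of the 10, 5 were lower in both states and 0 higher. The study cites earlier work in which this mutant line lacked follicular B-cells. The part of such cells in these values was not tested. Fcer2a, the follicular marker CD23, had 120 and 65.1 CPM at rest and 58.5 and 34.1 CPM after LPS, with an adjusted p of 0.348. Bach2, a repressor of plasma cell differentiation, had log2 ratios of -1.79 at rest and -0.45 after LPS (adjusted p = 0.182). Of 7 tested genes of immature and transitional B-cells 0 were called, with 5 lower in both states.

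**Figure D4:**
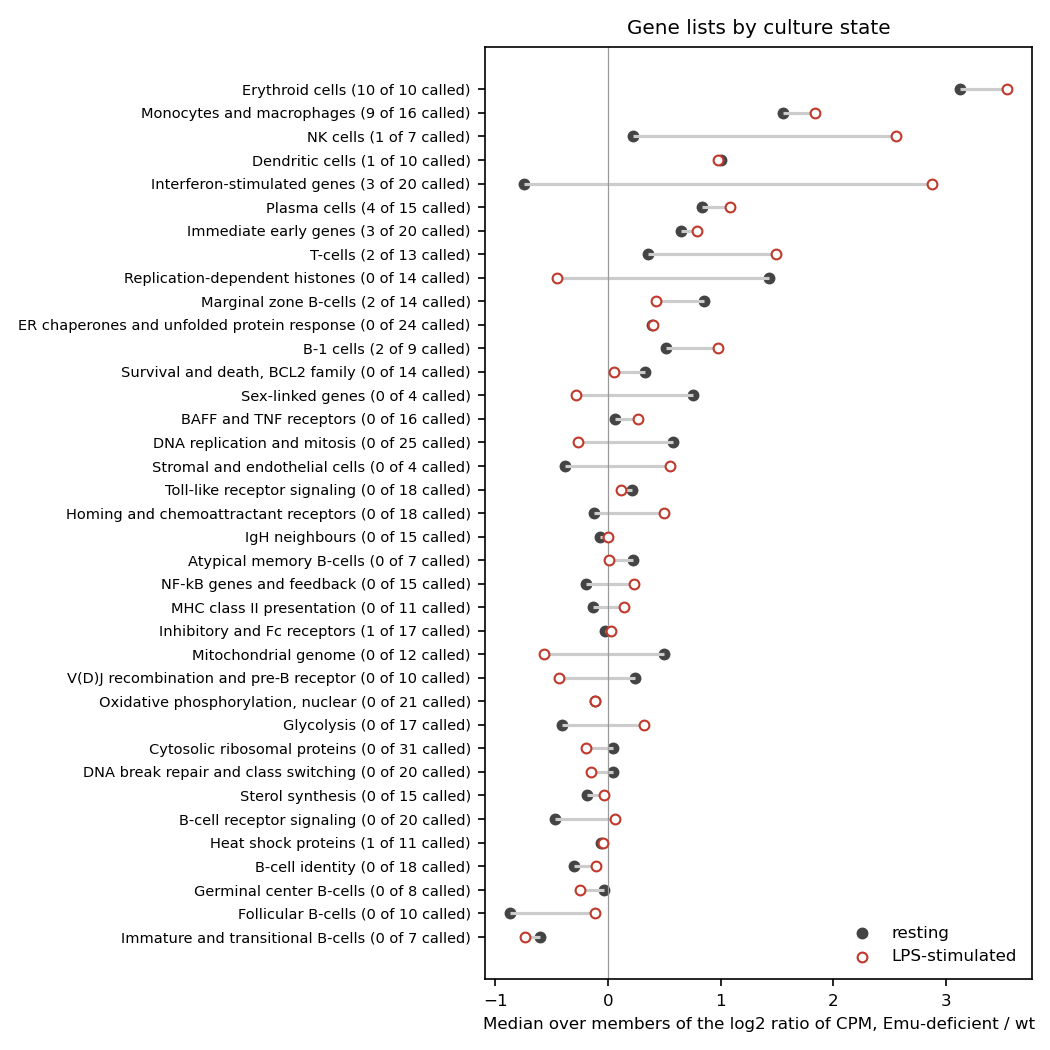
Median over tested members of the log2 ratio of CPM of Eμ-deficient to wt (x axis) for each gene list with at least 4 members measured in both states (y axis, with the number called), at rest (filled) and after LPS (open). The erythroid list stands at 3.13 and 3.54, and interferon-stimulated genes have medians of opposite sign, -0.75 and 2.87.

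Immediate early genes, which are switched on within minutes of a signal or of handling, were called for 3 of 20: Fos, Egr1 and Dusp1, while 15 of the 20 were higher in both states. Fos had 216 and 436 CPM at rest and 2.30 and 12.9 CPM after LPS (adjusted p = 0.0329). With the GC trend removed 0 of the 20 were called.

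Interferon-stimulated genes split by state. Of 20 names 3 were called higher: Isg15, Oasl2 and Rsad2. Rsad2, which codes for viperin, had 218 and 685 counts at rest and 11 and 106 after LPS. Of the 20, 16 had opposite signs in the states, as Irf7, a regulator of interferon genes, with log2 ratios of -1.20 and 3.85. Iigp1, an interferon-inducible GTPase named for its fold change, had 4 and 26 counts at rest and 0 and 55 after LPS.

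Other genes with large changes in both states included H2-M2, Ifi202b, Prg2 and Tmcc2, all higher. H2-M2, a non-classical MHC class I gene, had 75 and 581 counts at rest and 2 and 57 after LPS. Ifi202b, of the interferon-inducible p200 family, had 8 and 58 counts at rest and 2 and 52 after LPS, and 0 in both 3′RR-deficient libraries. Among the lower genes, Slc15a2, a peptide transporter, had 73.3 and 6.06 CPM at rest and 13.3 and 3.10 CPM after LPS, with a log2 fold change of -2.90 ± 0.43 (adjusted p = 0.000175). Whrn, a scaffold protein, had 811 and 84 counts at rest and 152 and 18 after LPS.

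The highest fitted fold changes among called protein-coding genes belonged to BC147527, Klk1b22 and D13Ertd608e. BC147527 had 0 counts in both wt libraries and 17 and 52 in Eμ-deficient B-cells, at rest and after LPS. Klk1b22, a kallikrein serine protease, had 0 counts in both wt libraries and 43 and 10 in Eμ-deficient B-cells. D13Ertd608e, which lies within 1 Mb of BC147527 on chromosome 13, had 1 and 0 counts in wt and 72 and 10 in Eμ-deficient B-cells. As these genes were picked by fold change, the lack of overlap between the genotypes is no separate result. With wt at or under 3 counts, their fold changes are bounds. The log2 ratio was at least 2.96 at rest and 5.09 after LPS for BC147527, and at least 4.30 and 2.71 for Klk1b22.

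Among the genes named for large rises in both states, 2 inflammatory genes had smaller counts. Fpr2, a receptor for bacterial formyl peptides, had 3 and 19 counts at rest and 1 and 28 after LPS (adjusted p = 0.00308). Il1a, which codes for the cytokine IL-1α, had 5 and 36 counts at rest and 4 and 16 after LPS (adjusted p = 0.00946). That the Eμ-deficient library was the higher one in each state was fixed by this choice.

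Among the lower genes, Akap12, a scaffold of protein kinase A, had 343 and 58 counts at rest and 317 and 24 after LPS (adjusted p = 0.0013). Cpne4, a calcium-dependent membrane-binding protein gene, had 131 and 4 counts at rest and 19 and 0 after LPS. Eps8l1, of the EPS8 family of actin regulators, had 96 and 6 counts at rest and 26 and 2 after LPS (adjusted p = 0.00691). These genes were named for large falls of the same sign in both states. That the Eμ-deficient library was the lower one in each state was thus fixed by the choice. Gm10116 had 1081 and 118 counts at rest and 1888 and 74 after LPS, and 69 and 43 in the 3′RR-deficient libraries. 4931429I11Rik had 91 and 13 counts at rest and 42 and 2 after LPS, and 0 and 2 in the 3′RR-deficient libraries.

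Several gene copies moved opposite to their relatives. Reads that map to several places were counted at their primary alignment, so the assignment of reads among near-identical copies is uncertain. Rps3a3 had 14 and 28 counts in wt and 2919 and 3494 in Eμ-deficient B-cells, at rest and after LPS, while its relative Rps3a1 had log2 ratios of -0.95 and -1.08. Summed over Rps3a1, Rps3a2 and Rps3a3, the log2 ratio was 0.03 at rest and -0.05 after LPS. Ftl1 had log2 ratios of 2.58 and 3.86, and with Ftl2-ps added 1.83 and 1.95.

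A further set of higher calls shared one sequence. The following run of 30 bases, printed because it defines the set, was held by transcripts of 12 of 55341 gene names searched in the GENCODE M21 annotation, all 12 in the count table. As background, the run belongs to the mouse major satellite, the repeat of pericentromeric heterochromatin.
Shared run: CAGTGTGCATTTCTCATTTTTCACGTTTTT
Of the 12, 11 were tested and all 11 were called higher, a set chosen after the values were seen. They lay mainly on chromosome 2 from 98662237 to 98667301 (Gm10801 and Gm10800) and on chromosome 9 from 3000282 to 3038316.

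Gm10800 had 778 counts in resting wt and 1685 in resting Eμ-deficient B-cells, and 10659 and 118681 after LPS. Its difference was larger after LPS, with a log2 ratio of 4.45 against 1.58 at rest. Summed over the 12 names the level was 60.0 and 178 CPM at rest and 722 and 16168 CPM after LPS. A read of the shared sequence may be placed at any of the members, so the 11 calls are not independent. With the GC trend removed 4 of the 11 were called.

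Genes of the exocrine pancreas, a list chosen after the values were seen, were lower in Eμ-deficient than in wt B-cells. At rest the list summed to 293 CPM in wt, 68.4 CPM in Eμ-deficient and 15.5 CPM in 3′RR-deficient B-cells. After LPS the sums were 6.96, 1.98 and 4.27 CPM. The 3′RR-deficient values were scaled over 6 libraries and the others over 4. At rest wt thus lay above both mutants. Of 33 listed names 21 were tested, and 7 were called lower. The count was 2 with DESeq2's Wald test, 2 with the GC trend removed and 1 with all 6 libraries, and 0 of 9 tested without either resting library. Amy2a3, a pancreatic amylase, had 1290 counts in resting wt and 202 in resting Eμ-deficient B-cells, and 29 and 2 after LPS (adjusted p = 0.00248). Ctrb1, which codes for chymotrypsinogen, had 367 and 53 counts at rest and 6 and 0 after LPS. The resting wt library was the highest of the 4 for these genes, and 13 of the 21 had no measurable direction in one state. The pancreas lies beside the spleen; the part of carried-over tissue was not tested.

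**Figure D5:**
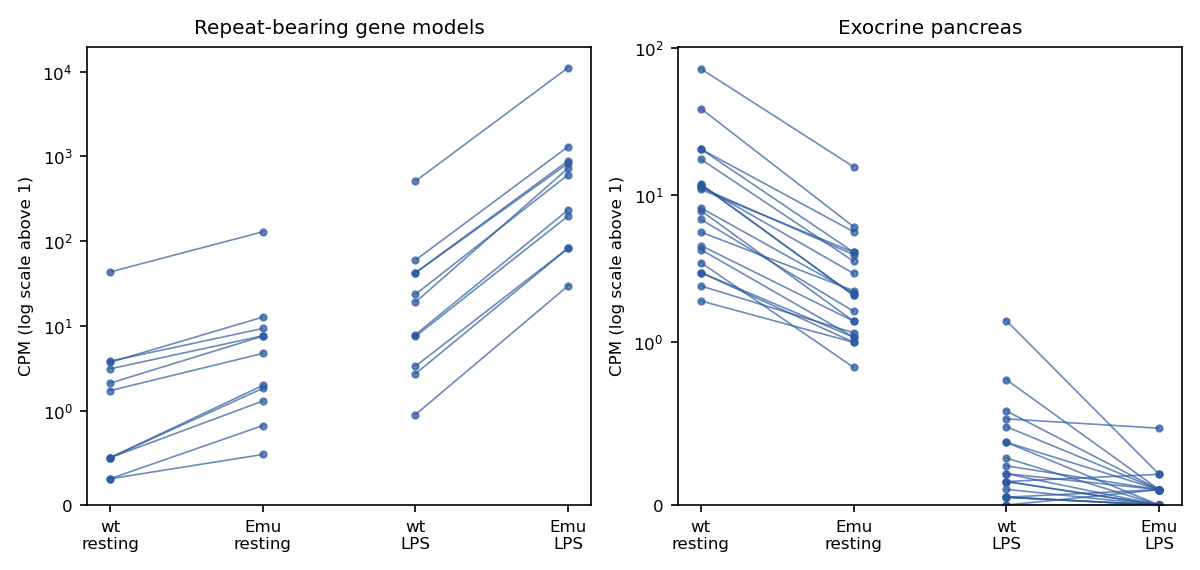
CPM (y axis, logarithmic above 1) in the 4 libraries (x axis) for the tested repeat-bearing gene models (left, 11 names) and exocrine pancreas genes (right, 21 names); each line joins wt and Eμ-deficient in one state for 1 gene. The repeat-bearing names are higher in Eμ-deficient B-cells in both states, and the pancreas genes are lower at rest.

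Lists of B-cell receptor signaling, NF-kB genes, Toll-like receptor signaling, MHC class II presentation, DNA replication and mitosis, cytosolic ribosomal proteins, glycolysis, sterol synthesis, nuclear oxidative phosphorylation, the BCL2 family, DNA break repair and class switching, and V(D)J recombination had 0 called members in edgeR's test. Over all genes, 1098 (7.94%) had an unadjusted p under 0.05, and DESeq2's Wald test called 185. A call missed in this design of 2 libraries per genotype does not show that a gene is alike in both.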

How the data were processed

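RNA of CD43- spleen B-cells was sequenced after rRNA depletion with a stranded kit, as paired reads. Per the labels, the authors mapped reads to mm10 with STAR 2.4.0a and counted them per gene name with featureCounts of Subread 1.4.6-p1; the study's methods state Ensembl gene models, the stranded setting and that multi-mapping reads were counted at their primary alignment. The values deposited are raw counts, not normalized, per gene name and library, and the table holds 1 library per genotype and state.

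Gene models, biotypes and positions were matched by name to GENCODE M21. Library sizes were scaled by TMM. Counts were fitted with edgeR 4.0.16 (R 4.3.3; glmQLFit and glmQLFTest) on 4 libraries with culture state and genotype as terms, for genes that reached 10 counts in 2 or more libraries, immunoglobulin genes included in the fit and adjustment and spike-ins left out. The adjusted p threshold was 0.05, with 21.1 prior degrees of freedom. The SE given after ± was derived from the test. It is the absolute log2 fold change divided by the square root of the quasi-likelihood F statistic, and not a spread between mice. Within-state ratios used a floor of 3 counts; a ratio with both libraries at the floor, or whose bound crossed 0, was given no direction, a rule added after the values were seen. Intervals and floors cover counting error only. Fits were tested on simulated counts, with the changed genes drawn from those with more counts. Of 100 genes changed by 1 on the log2 scale 2% were called, and of 100 changed by 2 78% were. Unchanged genes made up 2.44% of the calls. Most 2-fold changes would thus be missed, also in lists with 0 calls.

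Named genes were the 12 largest and 12 smallest fold changes among called protein-coding genes of the same sign in both states, the 12 rises and 12 falls largest in the smaller of both states, the 10 called genes of highest level, and list members; some genes that this rule names are not reported here. The members and lists were chosen with earlier results of these data known. Alternatives were other scalings, filters, DESeq2 1.42.0, all 6 libraries, each library left out, and removal of GC content or transcript length trends. Nothing states that libraries of a genotype are separate cultures of separate mice. The p-values judge the genotype difference only against its departure from being equal in both states, and not against the spread between mice.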

Additional observations from a re-analysis of the deposited data

Results flagged for a closer look

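Leaving aside lists drawn up from this table's own values, 4 gene lists with at least 4 members measured in both states had medians of the log2 ratio of Eμ-deficient to wt that were of opposite sign at rest and after LPS and at least 1 apart. The difference between states was not tested, since each state has 1 library per genotype. For interferon-stimulated genes the median after LPS minus that at rest was 3.62, for replication-dependent histones -1.88 (14 tested), for the mitochondrial genome -1.06 (12 of 12 opposite in sign), and for sex-linked genes, all Y-linked here, -1.04. The GC content trend, which also had opposite signs in the states, was present in these libraries, and its part in these differences was not tested.

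The 3′RR-deficient libraries were outside the comparison. In the stimulated one the repeat-bearing gene models summed to 18865 CPM, against 722 CPM in stimulated wt and 16168 CPM in stimulated Eμ-deficient B-cells, a level in CPM that was scaled over 6 libraries for the 3′RR-deficient one and over 4 for the others.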

How the results depend on the processing

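Of the 303 calls, 155 (118 higher and 37 lower) were called in the same direction under all 7 alternatives run on the same 4 libraries. DESeq2's Wald test called 185 genes, 146 higher and 39 lower. All 6 libraries gave 113, with 79 higher and 34 lower. Removing the GC trend gave 199, with 149 higher, and 26 listed genes called against 40; removing the length trend gave 463, with 372 higher. No filter on low counts gave 100 lower. Leaving out each library from the fit of all 6 gave 160 to 1126 calls, 135 to 618 higher and 25 to 508 lower; the highest came without stimulated wt (1126) and the lowest without resting Eμ-deficient (160). Counts past 2-fold in both states were 519, and 217 with 10 counts in all libraries, 208 on the log2(CPM + 1) scale and 219 at a log2 limit of 1.5. With each library left out in turn, the log2 fold change ranged from -2.08 (resting wt left out) to 3.98 for Ermap, where it was -1.96 without resting Eμ-deficient. Without resting Eμ-deficient it was lowest and reversed for Fcna (-2.09 to 3.32) and Sptb (-0.44 to 3.56). The cause was not tested. Over 108 named genes and 1322 alternatives, 1024 kept the call, 294 lost it and 4 changed sign. No paired analysis was possible because each group holds 1 library, and the shared number 1 names no mouse. Depth limits genes with few counts after LPS.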
